A study of Rattus norvegicus with 16 samples.

Results

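The genes of fatty acid and ketone body oxidation were examined in the left ventricle of spontaneously hypertensive (SH) and Wistar Kyoto (WKY) rats that inhaled diesel exhaust (DE) or air. The members were 43 genes listed by their known roles, with earlier results of these data known, and they were found on the array by gene symbol. Of these, 42 were measured by 50 probe sets that the platform annotation assigns to 1 gene, among 15866 probe sets tested and 12783 with 1 gene. The remaining gene, Acaa1a, the peroxisomal thiolase, lies on a probe set assigned to more than 1 gene and is not given.

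4 groups of male rats were compared, with 4 rats and 4 arrays in each. SH-DE rats were SH rats that inhaled DE at 2 mg/m3, SH-air rats were SH rats in air, WKY-DE rats were WKY rats that inhaled DE at 2 mg/m3, and WKY-air rats were WKY rats in air. All rats were 12 to 14 weeks of age and were exposed on 5 days/week for 4 weeks, for 6 hr each day according to the sample labels, whereas the study's methods give a shorter daily exposure. The SH strain develops high blood pressure from a young age, and WKY, its normotensive comparison strain, differs from it at many loci besides those of blood pressure. Left ventricular RNA was hybridized to the Affymetrix Rat 230A array, and each value is a MAS5 signal, the brightness of a probe set on a linear scale after each array was scaled to the same trimmed mean. Signals are not proportional between probe sets, so levels are compared only between groups of arrays for 1 probe set at a time.

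The adult heart draws most of its energy from long-chain fatty acids, which enter mitochondria through the carnitine shuttle and are shortened by beta-oxidation, while peroxisomes shorten very long chains. Ketone bodies made by the liver are a further fuel, and pyruvate dehydrogenase kinases hold back the use of glucose by switching off pyruvate dehydrogenase. The nuclear receptor PPARα, encoded by Ppara, and its coactivator PGC-1α, encoded by Ppargc1a, drive the transcription of many of these genes.

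The starts of 3 genes are shown, those of lowest p among the members called between the strains in air, as described below. Each sequence is the 250 bases before the RefSeq start in the GRCr8 assembly, on the gene's own strand, at chr11:82842637-82842886 (minus strand) for Bdh1, chr11:92746159-92746408 (plus strand) for Ehhadh and chr18:45515177-45515426 (plus strand) for Hsd17b4. Capitals mark a match to 1 of 4 motifs searched on both strands: the direct repeat of PPAR and RXR (2 copies of AGGTCA with 1 base between them), TCAAGGTCA (the ERR element), AGGTCA (the nuclear receptor half-site, which lies inside both longer motifs) and CCAAT (the CCAAT box).
Bdh1: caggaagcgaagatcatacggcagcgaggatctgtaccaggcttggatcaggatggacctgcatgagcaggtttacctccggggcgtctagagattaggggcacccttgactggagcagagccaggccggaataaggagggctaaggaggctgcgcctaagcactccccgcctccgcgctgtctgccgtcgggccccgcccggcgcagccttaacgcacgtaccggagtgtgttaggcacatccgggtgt
Ehhadh: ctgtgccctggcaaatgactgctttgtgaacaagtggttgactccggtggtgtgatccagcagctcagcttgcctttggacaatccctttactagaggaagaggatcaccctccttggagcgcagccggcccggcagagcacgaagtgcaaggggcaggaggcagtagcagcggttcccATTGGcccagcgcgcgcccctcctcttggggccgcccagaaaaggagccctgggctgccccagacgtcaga
Hsd17b4: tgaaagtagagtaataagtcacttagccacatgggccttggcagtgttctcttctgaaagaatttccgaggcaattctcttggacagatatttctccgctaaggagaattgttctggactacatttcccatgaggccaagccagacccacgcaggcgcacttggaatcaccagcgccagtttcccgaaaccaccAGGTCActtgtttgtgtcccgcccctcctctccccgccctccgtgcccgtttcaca
Bdh1 held no match, Ehhadh held a CCAAT box on the opposite strand 71 to 67 bases before the start, and Hsd17b4 held a half-site 56 to 51 bases before the start. Promoters were found for 38 of the 43 members. The half-site was in 5 of 38 member promoters (13.2%), against 13.7% of the 27457 promoters of the same length, and the CCAAT box was in 13 of 38 (34.2%), against 34.3% of all. The direct repeat and the ERR element were in none of the 38, and in 0.0546% and 0.368% of all promoters. A match is a description of the letters in this window and not a bound site.

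Across the 4 groups 31 of the 50 probe sets had every group mean above 1000. Cpt1b, the muscle form of carnitine palmitoyltransferase 1, had signals of 5882 ± 809.6 in SH-DE, 7211 ± 645.6 in SH-air, 6139 ± 633.8 in WKY-DE and 7120 ± 358.5 in WKY-air rats (SD, n = 4). Acadl, the long-chain member of the acyl-CoA dehydrogenases, which take the first step of each beta-oxidation round, had 18946 ± 1941 in SH-DE, 23279 ± 1494 in SH-air, 18056 ± 1302 in WKY-DE and 19492 ± 1793 in WKY-air rats. Oxct1, which hands CoA to the ketone body acetoacetate, had 14944 ± 1821 in SH-DE, 15640 ± 1487 in SH-air, 15367 ± 1932 in WKY-DE and 16112 ± 1638 in WKY-air rats. The ranges of all 4 groups overlapped for Oxct1. Overall means of 4 probe sets, among them Ppara, lay below 62.5, the 25th percentile of all values, and these are read with caution.

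The tissue carried ventricular markers in every group, while some markers, ventricular ones among them, differed between SH-air and WKY-air rats. Single markers named here as lower were called by limma, with adjusted p below 0.05 and raw p below 0.01. Among 7 atrial myocyte genes 4 were lower in SH-air than in WKY-air rats: the atrial light chain Myl7 had signals of 33.4 to 154 in SH-air, against 4415 to 25946 in WKY-air rats, and Sln, Myl4 and Dkk3 were lower too. The summed signal of the 7 was 13412 to 25015 in SH-air and 34186 to 97833 in WKY-air, and 13916 to 35407 in SH-DE and 13873 to 43728 in WKY-DE. Among 8 fibroblast genes 4 were lower in SH-air (Pdgfra, Lum, Dcn and Col3a1), with sums of 15875 to 19069, against 25095 to 30822 in WKY-air rats. Postn and Dpt of this list were not called, though all SH-air rats lay below all WKY-air rats. Under DE the fibroblast sums were 19433 to 21029 in SH-DE and 19311 to 24768 in WKY-DE rats. The strains thus overlapped under DE in the sums of both lists, and the WKY-DE fibroblast sums lay below those of WKY-air rats. Of 11 ventricular markers measured, Myh7 was lower in SH-air. The summed signal of the 11 was 288320 to 306050 in SH-air and 309700 to 404670 in WKY-air rats, without overlap. Under DE the ventricular sum was 230460 to 282450 in SH-DE rats, below that of every SH-air rat. In WKY-DE rats it was 232450 to 340180. In WKY rats Acta1 of the skeletal muscle list was lower under DE, as was the ventricular marker Irx4. Irx4 was near background, with signals of 6.8 to 15.7 in WKY-DE and 39.9 to 90.9 in WKY-air rats. Of 7 adipocyte genes Scd, a dim probe set, was lower in SH-air (8.92 to 71.2, against 92.6 to 122 in WKY-air rats). The summed signal of the 7, mostly that of Fabp4, went the other way, with 5508 to 6541 in SH-air and 4772.5 to 5468 in WKY-air rats. Of 2 brown adipocyte genes Cidea was lower in SH-air. Endothelial and macrophage markers had no call, but their sums were below those of WKY-air rats without overlap. The endothelial sum was 5158 to 5478 in SH-air and 5543 to 6462 in WKY-air rats. The macrophage sum was 1352 to 1547 in SH-air and 1643 to 1912 in WKY-air rats. Sums of the smooth muscle, lymphocyte, erythroid and skeletal muscle lists overlapped in air. The part of these markers in the results below was not tested. In bulk tissue, fewer cells of a type and less RNA per cell cannot be told apart. The median signal of an array was 173 to 216, pairs of arrays correlated at 0.933 to 0.968, and no 2 arrays were identical.

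In air, 8 of the 50 member probe sets were higher in SH than in WKY rats and none was lower, by limma with adjusted p below 0.05 and raw p below 0.01. This is 16.0% of the members, while 3.14% of all probe sets with 1 gene were called, with 1.31% of all higher and 1.82% of all lower. The 8 were Bdh1, Ehhadh, Hsd17b4, Pdk1, Crat, Slc25a20, Eci2 and Mlycd, with folds of 1.38 to 2.16. For all 8 the lowest SH-air rat was above the highest WKY-air rat, and 15 of 50 members had groups apart in this direction and 1 in the other, against 5.86% and 5.85% of all probe sets. A further 32 member probe sets had a positive value without a call, so 40 of 50 had a positive log2 fold change (80%, against 53.1% of all probe sets) and the median was 0.23, against 0.02 over all. At an unadjusted p under 0.05 there were 19 member probe sets, all with a positive value, or 38% of the members, against 17.8% of all probe sets. The members were chosen with earlier results of these data known, so these shares describe the list and are no test of it.

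**Figure D1:**
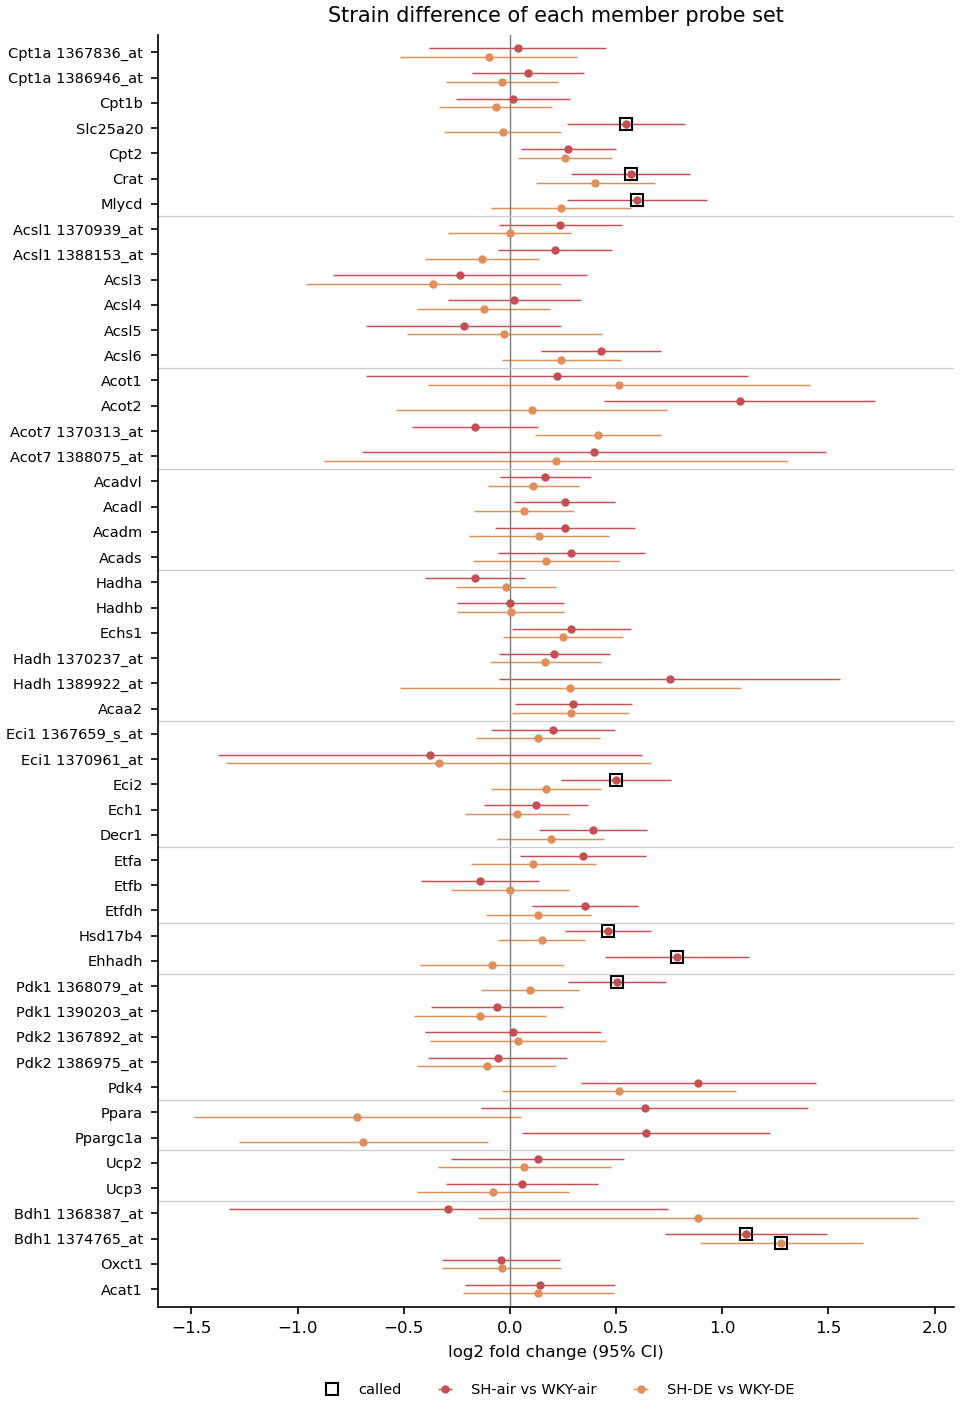
The log2 fold change of each member probe set with its 95% confidence interval, SH-air over WKY-air (red) and SH-DE over WKY-DE (orange), with rows ordered by role and grey lines between roles. Black squares mark the calls, 8 in air and 1 under DE, and 40 of the 50 red points lie to the right of 0.

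The ketone gene Bdh1, the mitochondrial 3-hydroxybutyrate dehydrogenase that takes the first step in using the main ketone body, had the lowest p of the members. On the brighter of its 2 probe sets the signals were 795, 739, 971 and 735 in SH-air rats, against 349, 495, 264 and 384 in WKY-air rats. Every SH-air rat lay above every WKY-air rat, and the log2 fold change was 1.11 (SE 0.18, limma adjusted p = 0.00432). The dimmer Bdh1 probe set gave 185, 231, 460 and 546 in SH-air and 261, 601, 481 and 333 in WKY-air rats. Its groups overlapped, its log2 fold change was -0.29 and it was not called, so the difference was seen by 1 of 2 probe sets. Strain variants under the probes were not examined, and the differences given here are differences in signal. The other ketone genes, Oxct1, which makes acetoacetyl-CoA, and Acat1, which splits it, had log2 fold changes of -0.04 and 0.14 and were not called.

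Both members of peroxisomal beta-oxidation, Ehhadh and Hsd17b4, were higher in SH-air. The peroxisomal oxidases Acox2 and Acox3, from the list of further genes, had log2 fold changes of 0.31 and 0.16 and were not called. Ehhadh, the L-bifunctional enzyme that hydrates and then oxidizes the enoyl-CoA, had signals of 209, 276, 217 and 211 in SH-air rats, against 105, 151, 148 and 102 in WKY-air rats. The groups did not overlap, with a log2 fold change of 0.79 (SE 0.16, adjusted p by limma = 0.0168). Hsd17b4, the D-bifunctional enzyme, had signals of 2995, 3016, 3154 and 3129 in SH-air rats, against 2159, 2223, 2460 and 2078 in WKY-air rats. All SH-air rats were above all WKY-air rats, with a log2 fold change of 0.46 (SE 0.10, adjusted p by limma = 0.0172).

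3 carnitine shuttle and malonyl-CoA genes were higher in SH-air. Slc25a20, the carrier that exchanges acylcarnitines for carnitine across the inner mitochondrial membrane, had signals of 3440, 3589, 3474 and 3853 in SH-air, against 2261, 2702, 2660 and 2215 in WKY-air rats (log2 fold change 0.55 with SE 0.13, adjusted p by limma = 0.0332). The groups were well apart. Crat, which moves acetyl groups between carnitine and CoA, had 3664, 2920, 4010 and 3808 in SH-air, against 2646, 2399, 2125 and 2484 in WKY-air rats (log2 fold change 0.57 with SE 0.13, adjusted p by limma = 0.0300). Mlycd, which removes malonyl-CoA, the inhibitor of carnitine palmitoyltransferase 1, had 2010, 1975, 2556 and 2355 in SH-air, against 1198, 1737, 1488 and 1444 in WKY-air rats (log2 fold change 0.60 with SE 0.15, adjusted p by limma = 0.0497). Every member of this role had a positive value, the other 4 probe sets (2 of Cpt1a, Cpt1b and Cpt2) uncalled, with Cpt1b at 0.02.

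Eci2, an isomerase that moves the double bond of unsaturated chains, had signals of 5655, 4614, 4709 and 4519 in SH-air, against 3562, 4064, 3045 and 3137 in WKY-air rats. SH-air rats were all higher, with a log2 fold change of 0.50 (SE 0.12, adjusted p by limma = 0.0373). Pdk1, a pyruvate dehydrogenase kinase, had signals of 2859, 3194, 2753 and 2905 in SH-air, against 2463, 1930, 2005 and 1879 in WKY-air rats on its brighter probe set. Here too the groups were apart (log2 fold change 0.50 with SE 0.11, adjusted p by limma = 0.0215), but its dimmer probe set gave 1693, 1250, 1682 and 1787 in SH-air, against 1681, 1646, 1806 and 1519 in WKY-air rats. That probe set overlapped between the groups, with a log2 fold change of -0.06. Pdk4, the kinase isoform induced by fasting, was not called although its groups did not overlap: 1626, 1662, 2416 and 1680 in SH-air and 737, 1086, 1023 and 1108 in WKY-air rats (log2 fold change 0.89 with SE 0.26, adjusted p by limma = 0.0794).

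The next members by p did not pass the test either: Acot2, a mitochondrial thioesterase (log2 fold change 1.08, limma adjusted p = 0.0641), Decr1, which reduces a double bond of unsaturated chains (0.39, adjusted p = 0.0927), Acsl6 (0.43, adjusted p = 0.0971), Etfdh, which passes electrons on to ubiquinone (0.35, adjusted p = 0.123) and Cpt2, the inner palmitoyltransferase (0.28, adjusted p = 0.182). The subunits of the mitochondrial trifunctional protein, Hadha and Hadhb, had log2 fold changes of -0.17 and 0.00. The calls depended on single rats: 5, 3, 4 and 2 members were called without SH-air replicate 1, 2, 3 or 4, 4 without WKY-air replicate 3 and 1 without WKY-air replicate 4. Bdh1 was called with each of the 16 arrays left out in turn, with adjusted p of 0.00241 to 0.0145. Ehhadh and Hsd17b4 kept their call in 14 of the 16 runs, Pdk1 in 11, Crat and Slc25a20 in 10, Eci2 in 7 and Mlycd in 3.

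By role, the uncalled members in air were mostly positive as well. The 4 acyl-CoA dehydrogenases (Acadvl, Acadl, Acadm and Acads, for very long, long, medium and short chains) had log2 fold changes of 0.17 to 0.29, with Acadm the 1 gene of these whose groups did not overlap. The acyl-CoA synthetases, which activate fatty acids for oxidation or storage, ranged from -0.24 for Acsl3 to 0.43 for Acsl6, and Acsl5 (-0.22) was the 1 member whose SH-air rats all lay below the WKY-air rats. Of the hydratase, dehydrogenase and thiolase members, Echs1 had 0.29, Acaa2 had 0.30 and the brighter probe set of Hadh had 0.21. Among the electron transfer flavoprotein genes Etfa and Etfdh had 0.34 and 0.35 and Etfb had -0.14. The regulators Ppara and Ppargc1a had 0.63 and 0.64, and the uncoupling proteins Ucp2 and Ucp3, carriers of the inner mitochondrial membrane, had 0.13 and 0.06. The probe sets of Pdk2 had 0.01 and -0.06, those of Acsl1 had 0.24 and 0.21 and those of Eci1 had 0.20 and -0.38, the last on a dim probe set.

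**Figure D2:**
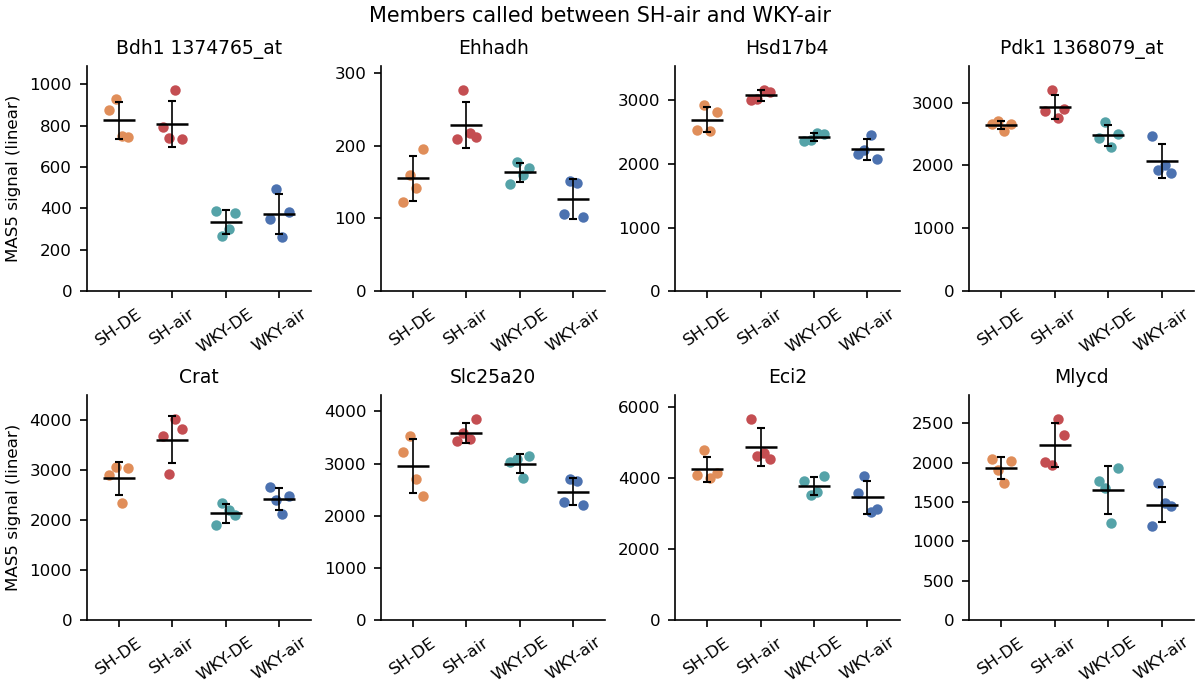
MAS5 signals (linear, from 0) of the 8 members called between SH-air and WKY-air rats, 1 point per rat, with mean (bar) and SD (whisker) of 4 rats. In each panel all 4 SH-air rats lie above all 4 WKY-air rats, and for Bdh1 the SH-DE rats (747 to 929) also lie above the WKY-DE rats (266 to 389).

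Under DE the strains differed at 1 member, 1 of 50, against 0.704% of all probe sets (0.422% higher). Bdh1, again on the brighter probe set, had 876, 929, 751 and 747 in SH-DE rats, against 389, 266, 303 and 376 in WKY-DE rats. The groups did not overlap, with a log2 fold change of 1.28 (SE 0.18, adjusted p by limma = 0.00253). These arrays are separate from those of the air groups, so the 2 strain comparisons share no rats. Of the other 4 members of lowest p, Crat had 2888, 3058, 2338 and 3024 in SH-DE and 1898, 2335, 2190 and 2092 in WKY-DE rats (log2 fold change 0.40, adjusted p = 0.190), Acot7 on its brighter probe set had 0.41 (adjusted p = 0.207), Ppargc1a had -0.69 (adjusted p = 0.299) and Cpt2 had 0.26 (adjusted p = 0.306). Over the 50 member probe sets, 37 had the same sign in both strain comparisons, 29 of them positive in both, against 53.6% of all probe sets with the same sign, and the correlation was 0.262 over the 50 and 0.157 over all. Among the 8 called in air, 6 were positive under DE. The members with groups apart under DE were 6 in the SH-DE direction and none in the other, against 3.3% and 5.51% of all.

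No member passed the test for DE in either strain. The WKY comparison uses the same WKY-air arrays as the strain comparison in air. In WKY rats 0 of 50 members were called by limma, against 1.87% of all probe sets (1.31% higher and 0.563% lower), and 8 members (16%) were below an unadjusted p of 0.05, 6 of them positive, against 20.4% of all probe sets. Acot7, a thioesterase of long-chain acyl-CoA, had 726, 1014, 791 and 743 in WKY-DE rats, against 1247, 1107, 985 and 1289 in WKY-air rats (log2 fold change -0.50 with SE 0.14, adjusted p by limma = 0.0743). 1 WKY-DE rat lay above 1 WKY-air rat, so the groups overlapped slightly. Ppargc1a had 438, 332, 233 and 347 in WKY-DE rats, against 157, 161, 304 and 141 in WKY-air rats (log2 fold change 0.80 with SE 0.27, adjusted p by limma = 0.125), where 1 high WKY-air rat overlapped 1 low WKY-DE rat. Ppara, close to background, had 73.5, 47.4, 114 and 25.8 in WKY-DE rats, against 25.1, 13.7, 22.5 and 29.3 in WKY-air rats (log2 fold change 0.96 with SE 0.36, adjusted p by limma = 0.154). Hadha, the trifunctional protein's alpha subunit, was the 1 member whose WKY-DE rats all lay below the WKY-air rats: 6594, 7489, 6509 and 6155 in WKY-DE, against 8247, 7537, 8480 and 8021 in WKY-air rats (log2 fold change -0.27 with SE 0.11, adjusted p by limma = 0.179). Pdk1 on its brighter probe set had 0.26 (adjusted p = 0.183). The members had 24 positive and 26 negative values with a median of -0.01, while all probe sets had a median of 0.08, and after quantile normalization 33 of 50 members were positive with a median of 0.12. The groups were apart for 2 members above and 1 below, against 8.14% and 4.58% of all probe sets.

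**Figure D3:**
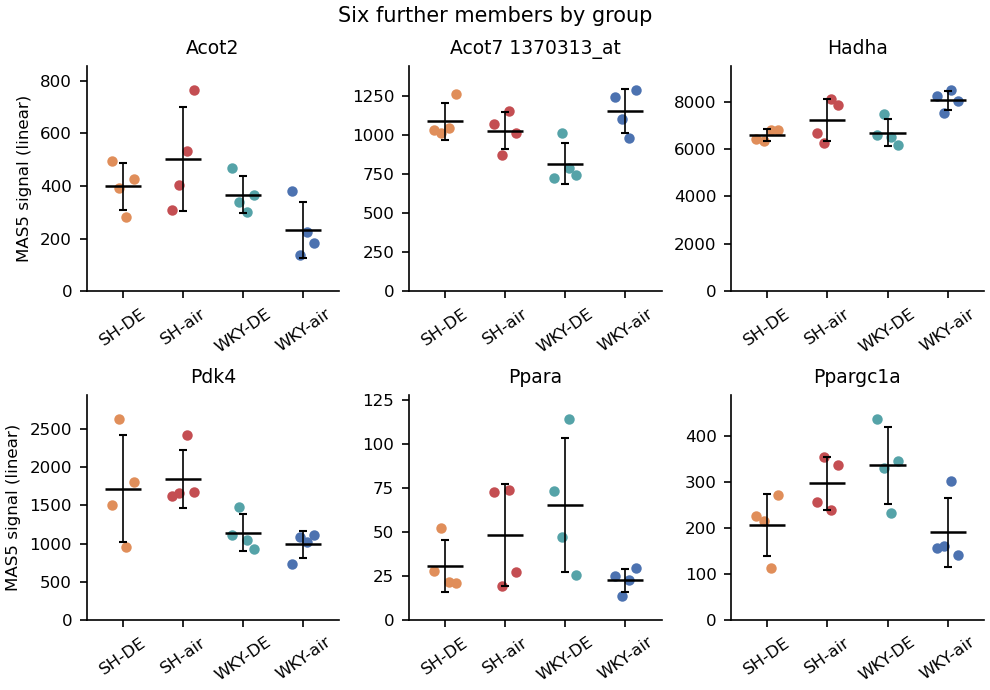
MAS5 signals (linear, from 0) of 6 further members, 1 point per rat, with mean (bar) and SD (whisker) of 4 rats. Hadha and Acot7 had lower means and Ppargc1a and Ppara higher means in WKY-DE than WKY-air rats, and none of these was called. Acot2 and Pdk4 were chosen after their values were seen.

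In SH rats limma called 0 of 50 members for DE, and 0 of all 12783 probe sets, with 6 members (12%) and 6.23% of all below an unadjusted p of 0.05, and the 6 were negative. The members had 37 negative and 13 positive values, with a median of -0.14, against -0.00 over all probe sets, of which 49.8% were positive. Ehhadh had 123, 159, 142 and 196 in SH-DE rats, against 209, 276, 217 and 211 in SH-air rats (log2 fold change -0.52 with SE 0.16, adjusted p by limma = 0.634). Its groups did not overlap, as for Hsd17b4 and Pdk1, and no member was apart in the other direction, against 2.06% and 2.11% of all probe sets. The next by p were Acadl (-0.30), Crat (-0.35), Cpt1b (-0.30) and Slc25a20 (-0.29), with adjusted p of 0.740 to 0.796. Of the 8 members called in air, 7 were negative in SH-DE over SH-air. That comparison uses the SH-air arrays that also set the calls, so the count is given as a description only.

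The strain by DE interaction, the DE effect in SH minus that in WKY rats, was called for 0 of 50 members, against 0.00782% of all probe sets, with 8 (16%) below an unadjusted p of 0.05, 7 of them negative, against 12.5% of all. The 5 of lowest p were Ehhadh (-0.87, limma adjusted p = 0.199), Ppargc1a (-1.33, adjusted p = 0.226), Slc25a20 (-0.58, adjusted p = 0.249), Acot7 (0.58, adjusted p = 0.274) and Pdk1 (-0.41, adjusted p = 0.307). Over the members 39 of 50 values were negative with a median of -0.12, while the median over all probe sets was -0.08 and 41.2% of them were positive. The interaction uses the air arrays that also set the calls in air, so these values are given as a description only.

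**Figure D4:**
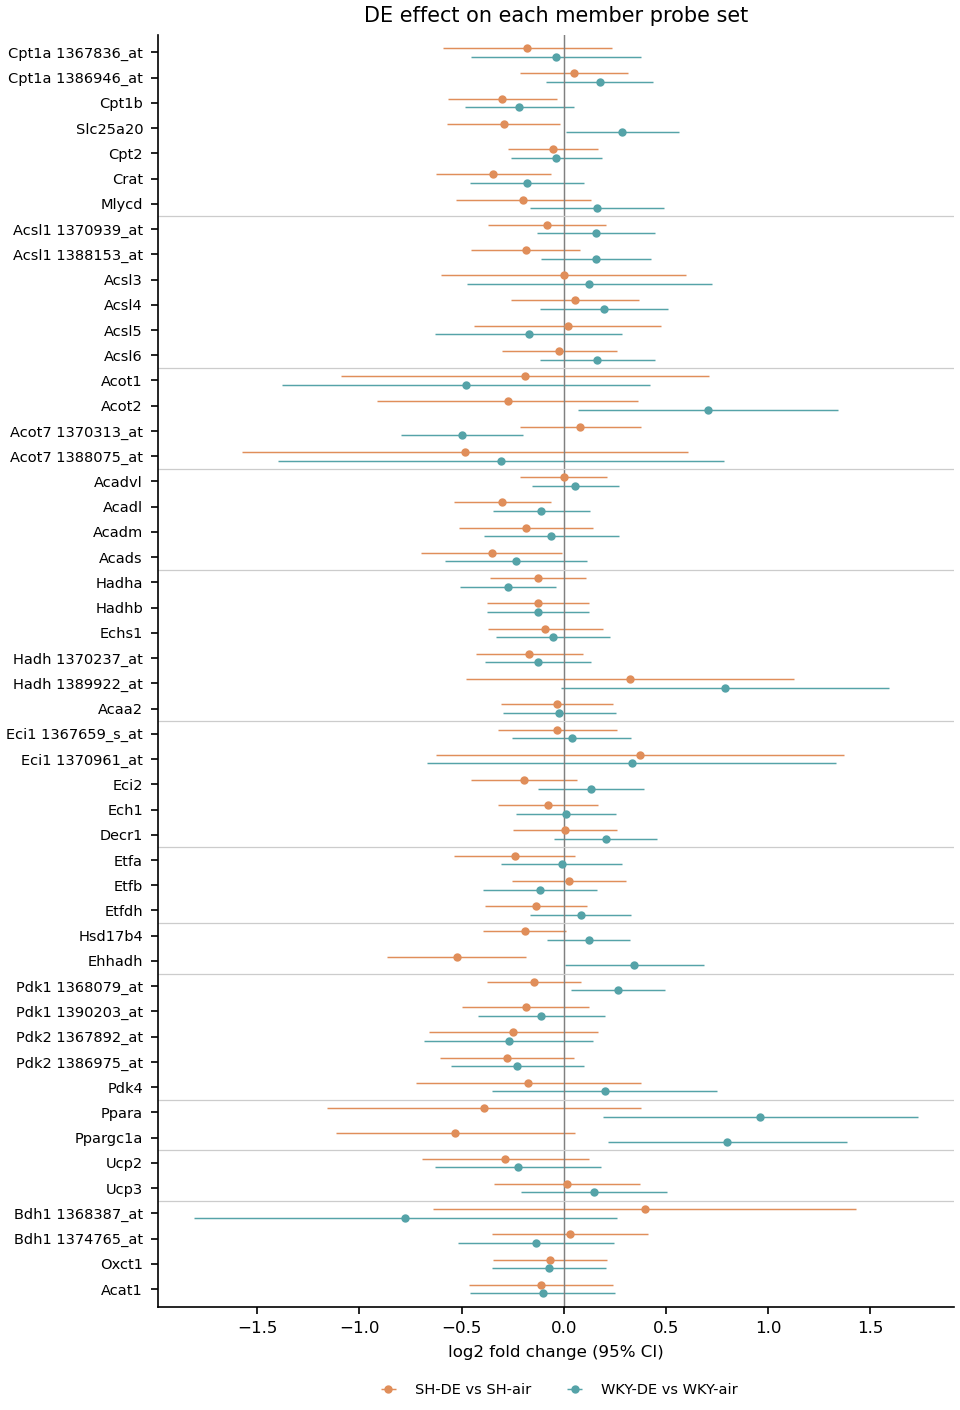
The log2 fold change of each member probe set with its 95% confidence interval, SH-DE over SH-air (orange) and WKY-DE over WKY-air (teal), with rows ordered by role. No member was called in either strain, and 37 of the 50 SH-DE points lie to the left of 0.

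By group mean, SH-air was highest for 30 of the 50 member probe sets, against 20.4% of all probe sets, and WKY-air was lowest for 22, against 34.1% of all. SH-air was highest and WKY-air lowest for 14 members, against 8.79% of all probe sets.

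Among 60 probe sets of 50 further genes of fatty acid and ketone metabolism (further oxidases, thioesterases, transporters, ketone enzymes and regulators), 3 were higher and 1 was lower in SH-air than in WKY-air rats, where 1.31% and 1.82% of all probe sets were called. Pdp1, the phosphatase that switches pyruvate dehydrogenase on, had a log2 fold change of 0.80 (limma adjusted p = 0.00129), Pnpla2, the lipase of stored triglyceride, had 0.51 (adjusted p = 0.0300), and Etfbkmt, which methylates an electron transfer flavoprotein subunit, had 0.52 (adjusted p = 0.0436). Cd36, the fatty acid uptake protein, was lower (log2 fold change -1.05, adjusted p = 0.0157), and was lower in SH-DE than in WKY-DE rats as well (-1.25, adjusted p = 0.00879). In WKY-DE against WKY-air 1 of the 60 probe sets, Etfbkmt, was called higher (0.71, limma adjusted p = 0.0221), against 1.31% of all. Etfbkmt was positive in SH-DE against SH-air as well, without a call (0.46, limma adjusted p = 0.628), and its interaction was -0.24. Limma called none of the 60 in SH-DE against SH-air or for the interaction. There 5 probe sets (8.33%) and 8 probe sets (13.3%) were below an unadjusted p of 0.05, against 6.23% and 12.5% of all.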

How the data were processed

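The authors deposited 1 MAS5 intensity (signal) per probe set and array, linear and not log-transformed, with each array scaled to a trimmed mean of 500, and the MAS5 version is not given in the sources used here. The 57 control probe sets were left out of 15923. The offset 16.1, which is the 10th percentile of the whole table, was added before taking log2, with no further normalization and no filter on dim probe sets. One linear model of 4 group means on 16 arrays was fitted (limma 3.58.1, R 4.3.3, moderated variances) with Benjamini-Hochberg adjustment over 15866 probe sets, and calls needed an adjusted p below 0.05 together with a raw p below 0.01. Fold changes are on the log2(signal + 16.1) scale, which understates changes of low signals. Of the probe sets tested 12783 have 1 gene in the platform annotation, 312 have several and 2771 are not in it.

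The rule for named genes gave each called member, or the 5 members of lowest p where fewer than 5 were called, and the member of highest mean signal in each role, a choice used for naming only and not a ranking of levels, of which some levels are printed. Genes outside it, Acot2 and Pdk4 among them, were chosen after their values were seen. The members and lists were chosen with earlier results of these data known. Sequences are from RefSeq, GRCr8. Alternatives were other offsets and thresholds, quantile normalization, a dim filter, trend and array weights, fewer groups in the model, a replicate block, genes in place of probe sets, and each array left out in turn. Leaving out WKY-DE replicate 3 and SH-DE replicate 3 together was chosen after seeing the data. The calculations were tested on simulated data. Probe sequences were not compared with strain variants.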

Additional observations from a re-analysis of the deposited data

Results flagged for a closer look

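In 10 of 168 groups of 4 arrays tested by Dixon's rule, 1 rat lay far from the other 3, and chance gives about 1 in 20. Hadhb was 17165 in SH-air replicate 1 and 19619 to 20114 in the others. Acadl was 21822 in SH-DE replicate 2 and 17724 to 18400 in the others. Cpt1b was 4684 in SH-DE replicate 4 and 6176 to 6470 in the others. Ehhadh was 276 in SH-air replicate 2 and 209 to 217 in the others, and Pdk4 was 2416 in SH-air replicate 3 and 1626 to 1680 in the others. Ppargc1a was 304 in WKY-air replicate 3 and 141 to 161 in the others, and Hadh was 10417 in WKY-DE replicate 4 and 9543 to 9649 in the others. Acot7 was 1265 in SH-DE replicate 4 and 1016 to 1050 in the others. Eci2 was 5655 in SH-air replicate 1 and 4519 to 4709 in the others, and 4772 in SH-DE replicate 2 and 4008 to 4134 in the others. The 3 arrays with more than 1 of these values were SH-air replicate 1, SH-DE replicate 2 and SH-DE replicate 4.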

How the results depend on the processing

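The count of members called between SH-air and WKY-air rats, 8 as reported, was 1 at an adjusted p under 0.01, 1 in a model of the compared groups alone and 1 to 8 with each array left out in turn. With the replicate number as a replicate block it was 4. Same-numbered arrays deviated together with correlations of -0.096 to 0.053, and 2 of 16 arrays correlated best with their own number, so the numbers do not pair the rats, and the block changed no other count. The count was 7 with offset 1, 9 with the 25th percentile as offset or with array weights, 12 with an intensity trend or without the dimmest 40% of probe sets, and 8 with quantile normalization, with genes in place of probe sets, or without WKY-DE replicate 3 and SH-DE replicate 3. In WKY-DE against WKY-air 1 member, Acot7, was called without the dimmest 40% (adjusted p = 0.0373) and 1 with an intensity trend (adjusted p = 0.0355), against 0 as reported. After quantile normalization 33 of 50 members were positive in that comparison and the median was 0.12, against 24 of 50 and -0.01. The 28 fold changes of the called members, and of the 5 of lowest p in the other comparisons, kept their sign in each alternative that gave them. Those of other members were not followed. Ppara dropped out with the dimmest probe sets, the interaction had no value in models of the compared groups alone, and the count by genes refitted nothing. The 28 were picked by p in the same data, so the kept signs are a description only. Bdh1 was called under each alternative in both strain comparisons. The cause of these changes was not tested. The signals near background, such as Ppara, limit what can be said of those members.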
